A study of Mus musculus with 4 samples.

Results

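Chromatin loops that enclose exactly 1 protein-coding gene were followed across 4 Hi-C loop lists from mouse uterus. Hi-C reads out which stretches of DNA touch in the nucleus by ligating and sequencing them, and a loop is a pair of anchors called as touching more often than their surroundings. A loop was a member when it was over 60 kb and up to 2 Mb long, from the start of the first anchor to the start of the second, and when exactly 1 gene body of the RefSeq table for GRCm38.p6 (the assembly behind mm10) lay wholly between the anchors. No other protein-coding gene body could touch that interval, and no start or end of a protein-coding gene could lie in either anchor. Of 59353 loops in the lists, 2979 were members, and they enclosed 748 of 21627 protein-coding genes on the autosomes and X. The lists come from 1 library each, and a gene could be enclosed by several loops of a list.

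All libraries were whole uterus of C57BL/6J females over 10 weeks old, ovariectomised and rested for 10 to 14 days, with tissue frozen 1 h after an injection. Wild-type mice received 100 ul of saline into the abdominal cavity (vehicle replicates 2 and 3) or a dose of 1 mg progesterone under the skin, carried in 100 ul of sesame oil (replicate 2). Carrier and route thus differ along with the hormone. The only mutant library, whose label carries no replicate number, came from mice of genotype Ex3aERKO, which lack estrogen receptor alpha, the product of Esr1, and received saline. The labels used here do not say if a library held 1 animal or a pool. The uterus is a mixture of muscle, stroma, epithelium, vessels and immune cells, and no expression value was used here, so the cell type in which a loop formed cannot be told apart.

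Loops of this size are commonly made when cohesin extrudes DNA until it meets CTCF bound at both anchors. The enclosed DNA contacts itself more often than it contacts flanking DNA, and an interval that holds a single gene and its enhancers is often called an insulated neighbourhood. Genes of embryonic patterning are known for lying alone in wide gene-poor intervals that carry their distant enhancers.

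The starts of 4 enclosed genes are given as examples of promoters inside such loops and do not stand for the set. Shown are the 250 bases just before the gene start, read on the strand of the gene from RefSeq sequence of GRCm38.p6, with every CG in capitals. Klf6 and Slc8a1 are the transcription factor and the transporter with many loops. Wnt4 is a signalling ligand with a loop at the same position in all lists. Hand2 is a transcription factor. An anchor of a Hand2 member loop lay within 10 kb of its 3′ end in every list but vehicle replicate 2.
Klf6 (chr13:5861239-5861488, plus strand): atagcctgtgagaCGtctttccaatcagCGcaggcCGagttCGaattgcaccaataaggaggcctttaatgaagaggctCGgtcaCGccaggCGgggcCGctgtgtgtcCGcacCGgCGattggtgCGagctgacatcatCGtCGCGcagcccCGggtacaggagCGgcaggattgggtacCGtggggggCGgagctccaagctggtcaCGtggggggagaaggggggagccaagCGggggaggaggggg
Slc8a1 (chr17:81738388-81738637, minus strand): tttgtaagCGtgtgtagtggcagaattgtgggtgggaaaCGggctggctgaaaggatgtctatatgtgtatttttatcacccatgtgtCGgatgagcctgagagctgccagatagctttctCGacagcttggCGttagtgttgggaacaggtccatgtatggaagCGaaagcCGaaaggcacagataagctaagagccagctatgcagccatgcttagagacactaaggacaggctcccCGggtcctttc
Hand2 (chr8:57320733-57320982, plus strand): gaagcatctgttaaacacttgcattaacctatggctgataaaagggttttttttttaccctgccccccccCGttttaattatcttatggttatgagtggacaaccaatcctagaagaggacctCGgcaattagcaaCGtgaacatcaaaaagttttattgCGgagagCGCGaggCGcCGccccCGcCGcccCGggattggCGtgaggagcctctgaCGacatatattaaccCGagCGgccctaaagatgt
Wnt4 (chr4:137277385-137277634, plus strand): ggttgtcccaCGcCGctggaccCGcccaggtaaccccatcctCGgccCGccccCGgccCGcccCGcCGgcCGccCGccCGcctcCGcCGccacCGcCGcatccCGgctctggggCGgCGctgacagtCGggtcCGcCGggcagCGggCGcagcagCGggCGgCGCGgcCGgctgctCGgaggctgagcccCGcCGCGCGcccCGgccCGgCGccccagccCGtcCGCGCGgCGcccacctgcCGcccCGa

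The count of CG was 21 in the Klf6 promoter, 8 in Slc8a1, 15 in Hand2 and 44 in Wnt4. CG is the same on both strands, and 92.8% of the 17273 promoters in the table hold at least 1, with a median of 10.0 (quartiles 3 and 19). Slc8a1 lay below that median, and Klf6 and Wnt4 lay above the upper quartile. The promoter table held 555 of the 748 enclosed genes (74.2%), under the 80% needed for a comparison over the set, so that comparison is void. The sequence of the anchors themselves was not used here.

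The vehicle lists held 839 (replicate 2) and 549 (replicate 3) members, the progesterone list 666 and the knockout list 925. As a share of all loops of the same length range they made up 6.27% (95% interval 5.86 to 6.69) of 13390, 6.85% (6.31 to 7.43) of 8009, 6.78% (6.29 to 7.30) of 9819 and 5.49% (5.15 to 5.85) of 16840, in the same order. The interval of the knockout share lay just below those of the other lists. The intervals are exact Clopper-Pearson ones for counting error alone, and loops that neighbour each other are not independent. The knockout list was also the longest, with 21829 loops of any length against 9385 to 16387, and the files hold no contact counts, so sequencing depth is unknown here and its part in these counts was not tested.

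The genes enclosed alone numbered 592, 442, 503 and 619 in vehicle replicate 2, vehicle replicate 3, progesterone and knockout. That is 2.74%, 2.04%, 2.33% and 2.86% of all protein-coding genes, and 3.46% in any list. Most genes lie too close to a neighbour for such a loop: only 6755 had room for a loop over 60 kb with 5 kb anchors, and 11.1% of these were enclosed alone in some list. All 748 enclosed genes were among those with room, which follows from the definition of room. The share of genes with room was 8.76% and 6.54% for vehicle replicates 2 and 3, 7.45% for progesterone and 9.16% for the knockout.

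Exclusivity here refers to protein-coding genes. The median member interval also held 4 non-coding genes of the same table in every list, and only 52, 31, 43 and 52 member loops held none between the anchors. With non-coding genes barred from interval and anchors as well, 44, 25, 33 and 41 loops and 56 genes were left. Of these genes 21 were enclosed in all 4 lists, among them Agtr1a (a receptor for angiotensin, loops of 260 to 265 kb), Lama1 (a laminin chain, 180 to 185 kb), Ngfr (a receptor for neurotrophins, 115 to 120 kb), Cyp7a1 (the rate-limiting enzyme of bile acid synthesis, 65 to 75 kb) and Kcnj16 (a potassium channel, 470 kb). The members are also sensitive to the anchor edge: with anchors widened by 10 kb before genes were placed, 461, 272, 347 and 524 loops were left.

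Member loops were longer than the rest. Their median length was 340.0 kb (quartiles 160.0 and 650.0) in vehicle replicate 2, 320.0 kb (155 and 600.0) in vehicle replicate 3, 342 kb (155 and 629) for progesterone and 325 kb (150 and 625) in the knockout. Other loops of the length range had medians of 230.0, 230.0, 230.0 and 205 kb. The rule asks for a whole gene body between the anchors and bars any other, so it bears on length itself. The difference describes the members and is not a finding. The gene filled a small part of its interval: the median was 19.4%, 21%, 18.9% and 18.4%. In vehicle replicate 2 the gene filled over 50% of the interval in 144 member loops and under 10% in 308. The curves of length and of filling for the 4 libraries lay nearly on top of each other.

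**Figure D1:**
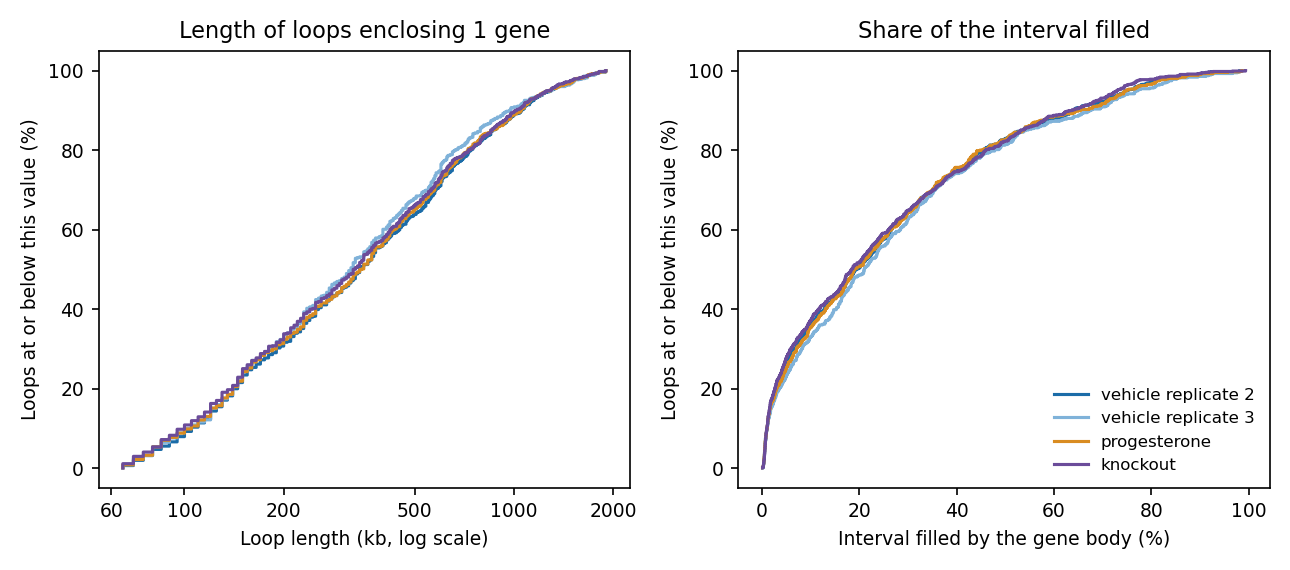
Cumulative share of loops enclosing 1 gene (vertical axis, %) against loop length (left, kb, log scale) and against the share of the interval filled by the gene body (right, %), with 1 line per library. The 4 lines nearly coincide, with median lengths from 320.0 to 342 kb and median filling from 18.4% to 21%.

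The gap to the anchor was taken apart for the nearer and the farther gene end, so the nearer gap is the smaller by definition. In vehicle replicate 2 the nearer gene end was a median of 31.0 kb from its anchor and the other end 182 kb. The nearer gap was 26.5, 28.9 and 32.4 kb in vehicle replicate 3, progesterone and knockout. A gene end within 5 kb of an anchor was seen in 133, 104, 105 and 137 member loops, while both ends were over 25 kb away in 469, 281, 359 and 518. Enclosed genes were long: the median body was 47.8 kb for genes enclosed in any list and 49.8 kb for those in all 4, against 31.4 kb for genes with room enclosed in no list and 17.3 kb for all protein-coding genes. The space between the neighbouring genes had a median of 443 kb against 185 kb for genes with room enclosed in no list. The rule asks for such space, so this is a description of the members and not a finding.

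The loops at the limits of length show how sharp the rule is. The shortest member loops were 65 kb, of which the lists held 6, 5, 6 and 11. Cttnbp2nl, Gprc5c and P2ry2 each had 1 in all 4 lists. That of Cttnbp2nl joined chr3:104990001-104995000 and chr3:105055001-105060000, and the gene filled 85.4% of its interval. The next step down is 60 kb, just outside. There the lists held 12, 12, 8 and 16 loops that met every other condition, Foxi1 and Klf15 among their genes in all 4 lists. Igf2, a fetal growth factor, crossed this limit: its loop was 65 kb in both vehicle lists, at the same position, and 60 kb after progesterone and in the knockout, so it counts as a member only in the vehicle lists. At the other end the longest members were 1900 kb. They enclosed Man1a, a mannosidase of the Golgi, in vehicle replicate 2, progesterone and knockout, Slit2 in vehicle replicate 2 and knockout, and Sox11 in vehicle replicate 3 and progesterone. A further Man1a loop of 2120 to 2125 kb in all 4 lists was just outside. Tnp1, a chromatin protein of sperm, filled least of its interval, at 0.0879%.

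Most enclosed genes had 1 member loop in a list (445, 368, 411 and 455 genes), and 147, 74, 92 and 164 had several. Meis1, a homeobox transcription factor of limb and blood development, stood at the top of every list, with 13 and 6 member loops in vehicle replicates 2 and 3, 12 under progesterone and 14 without the receptor. Its body (chr11:18880428-19019651, 139 kb) sat in a fan of loops. In vehicle replicate 2, 9 loops had their first anchor and 3 their second within 10 kb of the gene, and the lengths ran from 250 to 1610 kb. In the knockout these counts were 9 and 4, and the shortest loop, 145 kb, had the gene fill 99.4% of the interval, the fullest of any member.

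**Figure D2:**
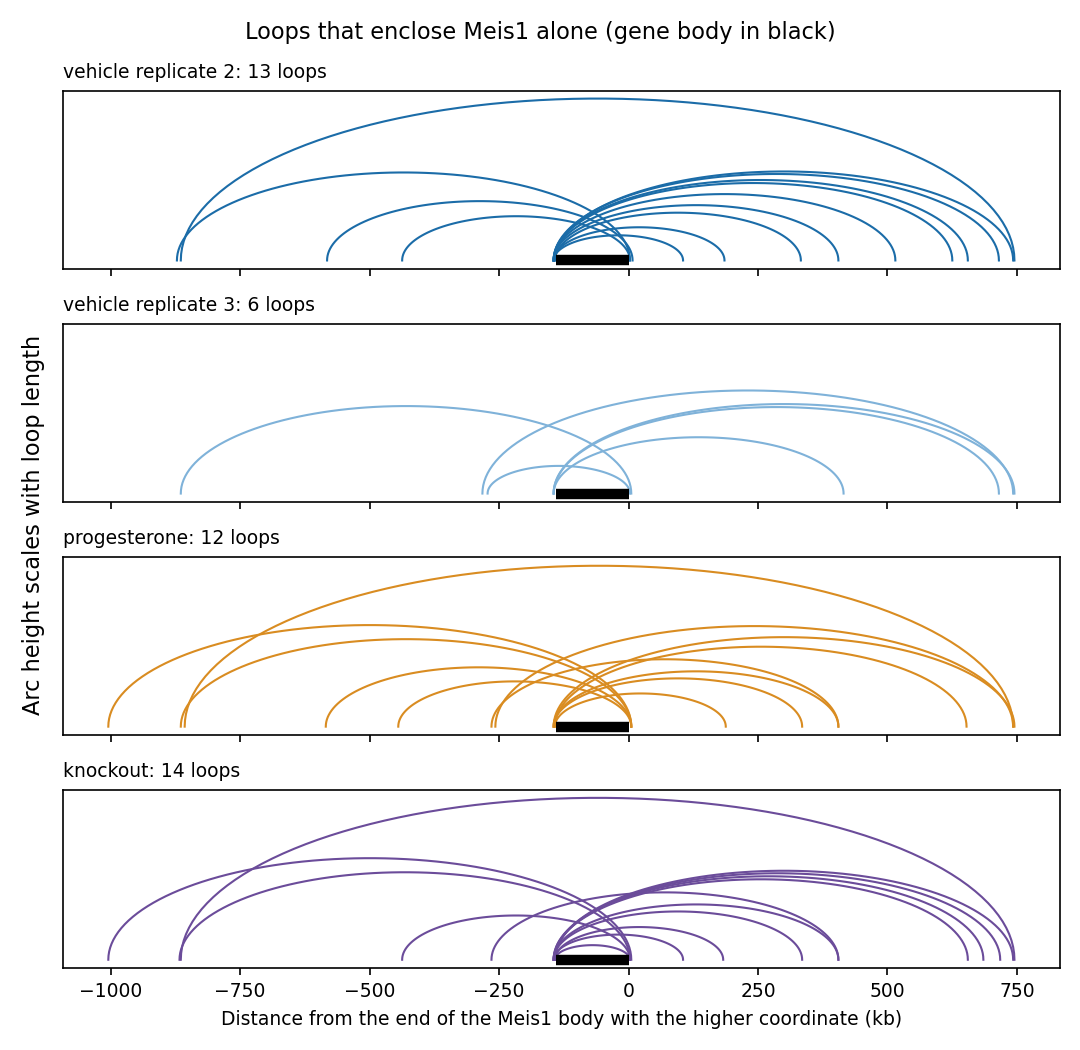
Each arc is a loop that encloses Meis1 and no other protein-coding gene, in 1 panel per library. The horizontal axis is the distance in kb from the end of the gene body with the higher coordinate, arc height scales with loop length, and the black bar is the gene body. Most arcs in every panel have an anchor within 10 kb of the gene, and vehicle replicate 3 has 6 arcs against 12 to 14.

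Slc8a1, a sodium-calcium exchanger of muscle membranes, followed with 7, 4, 5 and 11 member loops in vehicle replicate 2, vehicle replicate 3, progesterone and knockout, none with an anchor within 10 kb of the gene. Tle3, a corepressor that works with Wnt effectors, had 8, 3, 5 and 9. Klf6, a zinc finger transcription factor induced early in many responses, had 5, 4, 6 and 7, from 350 to 1870 kb long. The 1805 kb loop of Klf6 joined chr13:4665001-4670000 and chr13:6470001-6475000 in all 4 lists, and the gene, whose promoter is printed above, has a body of only 8.90 kb. Vehicle replicate 3 had the lowest or joint lowest count for all of these.

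Adamts5, an enzyme that cleaves aggrecan and versican, had 6, 5, 5 and 5 member loops, which shared 1 or 2 first anchors and spread over 5 or 6 second anchors. The anchor chr16:85805001-85810000 was the first anchor of its 1440 kb loop in all 4 lists. Gm40514, a predicted gene, had the mirrored layout: 6, 4, 5 and 7 loops with a single second anchor in each list and as many first anchors as loops, from 75 to 725 kb long. Cenpw, a centromere protein, had 5, 3, 3 and 10, so its knockout count was the highest of its row. Irf2bp2, a transcriptional corepressor, had 6, 3, 6 and 5 loops of 140 to 425 kb.

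Other genes with many loops were a chemokine and regulators of transcription. Cxcl12, a chemokine, had 6, 3, 5 and 4 member loops, and its 1060 kb loop lay at the same position in all 4 lists. Id4, an inhibitor of helix-loop-helix factors, had 4, 3, 5 and 6, and Hes1, a Notch effector, had 4, 4, 5 and 4. The body of Hes1 is 2.44 kb, and it filled 2.03% of its smallest interval.

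**Figure D3:**
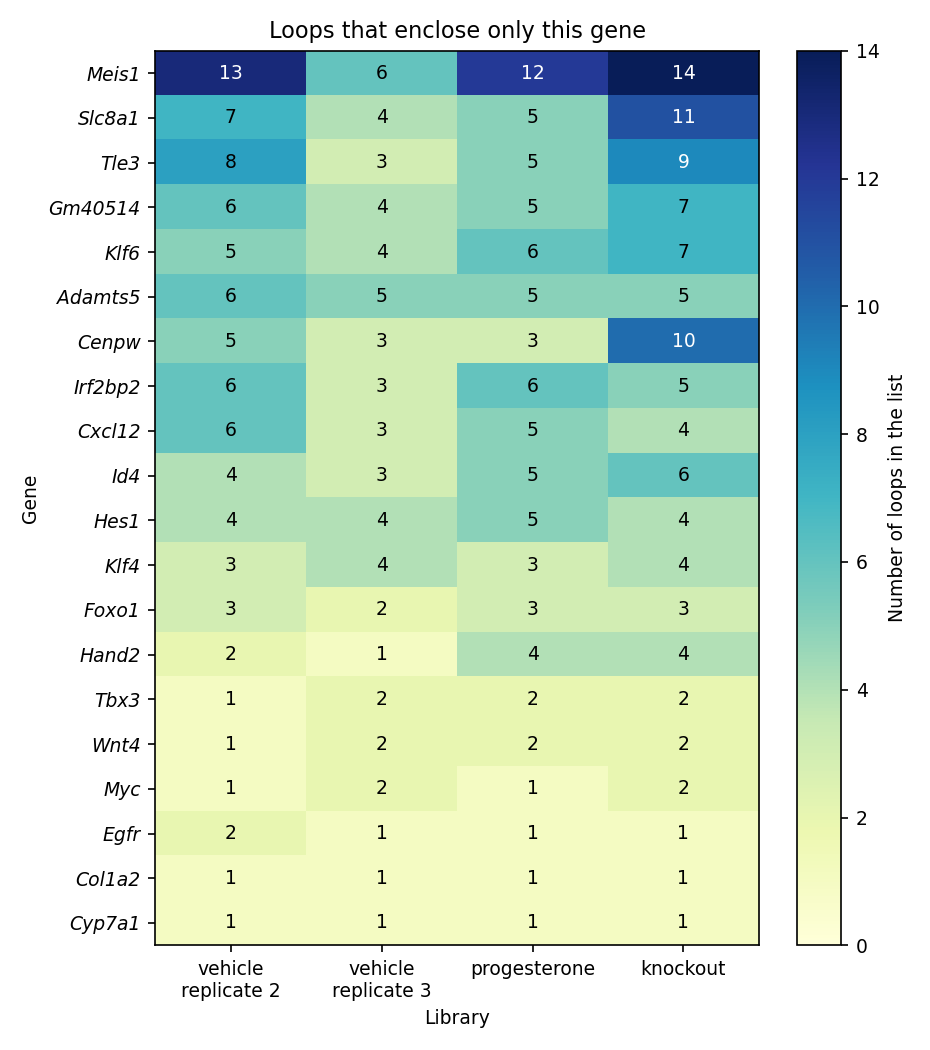
Number of loops that enclose only the gene named (rows), in each library (columns), with the number printed in each cell and shown by colour. Meis1 has 6 to 14 loops and leads every column, and genes such as Col1a2 and Cyp7a1 have 1 loop in every library.

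Among genes that answer estrogen early in the uterus, 9 of 38 were enclosed alone in some list. That is 36.0% of the 25 with room, beside 11.1% of all genes with room. Klf4, a zinc finger factor of epithelial differentiation, had 3, 4, 3 and 4 member loops, and Myc, a growth regulator, 1, 2, 1 and 2. The first anchor lay within 10 kb of Myc in all of its loops, which were 815 to 1760 kb long. Bhlhe40, Gadd45g, Inhbb and Sox9 were enclosed alone in 2 lists each. Klf6, Klf4, Bhlhe40 and Sox9 also count among the developmental transcription factors below (33.0% of those with room). Wnt4, Igf1 and Inhbb also count among the secreted ligands (24.1%). Wnt4 is in the progesterone-response and Mullerian gene lists as well, so the shares of these gene lists are not independent. Space between neighbouring genes was not compared for them.

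Igf1, the growth factor that carries much of the uterine estrogen response, was enclosed alone in the 3 wild-type lists and not in the knockout. Its 300 kb loop joined chr10:87650001-87675000 and chr10:87950001-87975000 in all 3, and the gene (chr10:87858265-87937047) lay 183 kb from the first anchor and 12.95 kb from the second. No knockout loop lay within 10 kb of both anchors. The 25 kb anchors are the coarsest in the lists, and with those loops left out Igf1 had no member loop in any list. Esr1, Pgr (the progesterone receptor), Greb1 (an estrogen-induced coactivator) and Ihh (the hedgehog ligand that progesterone induces in epithelium) were enclosed alone in no list.

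Of the progesterone-response genes, 10 of 36 were enclosed alone in some list and 6 in all 4 (Foxo1, Hand2, Wnt4, Egfr, Gli2 and Hand1). The 10 are 40% of the 25 with room, beside 11.1% of all genes with room, of which 5.43% were enclosed alone in all 4 lists. Foxo1, Hand2, Gli2, Hand1, Nr2f2 and Sox17 also count among the developmental transcription factors below, and Wnt4 and Bmp2 among the secreted ligands. Wnt4, a ligand of stromal decidualisation, had 1, 2, 2 and 2 member loops. Its 230 kb loop joined chr4:137075001-137080000 and chr4:137305001-137310000 in all 4 lists, with the gene end 5.50 kb from the second anchor. The second Wnt4 loop, 145 kb long, used the same second anchor in vehicle replicate 3, progesterone and knockout.

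Hand2, a stromal transcription factor that progesterone receptor drives, had 2, 1, 4 and 4 member loops. None of those in vehicle replicate 2 was found in all 3 other lists. Loops of Hand2 with the second anchor within 10 kb of the gene numbered 0, 1, 3 and 2. The shortest Hand2 loops, 115 kb after progesterone and 120 kb in the knockout, were members only in those lists, and each was within 10 kb of both anchors of the other. Foxo1, a regulator of decidual genes, had 3, 2, 3 and 3 loops, with the first anchor within 10 kb of the gene in 2, 2, 3 and 3. Egfr, the receptor for epidermal growth factor, had 2, 1, 1 and 1.

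Genes that pattern the Mullerian duct and uterus gave 9 of 33 in some list, which is 50% of the 18 with room, beside 11.1%. Tbx3 had 1, 2, 2 and 2 member loops, each with the second anchor within 10 kb of the gene. Pax2 and Tcf21 had 1 in each list. Tbx3, Pax2, Tcf21, Osr1 and Msx2 also count among the developmental transcription factors below, and Wnt4 and Bmp7 among the secreted ligands. Of steroid receptors and coregulators, 3 of 23 were enclosed alone, 25% of the 12 with room, none in all 4 lists. Among them, Foxa2 had 1 in vehicle replicate 2 and 1 after progesterone, and Nrip1 had 1 in each vehicle list. Foxa2 also counts among the developmental transcription factors.

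Cell type markers bear only on gene position here, since no marker level was measured. Col1a2 (a collagen chain of stroma), Kdr and Pecam1 (endothelium) each had 1 member loop in all 4 lists. The counts were 3 of 14 stromal, 3 of 11 endothelial, 1 of 16 epithelial, 0 of 13 smooth muscle and 0 of 13 immune markers, and of these 14, 6, 4, 2 and 3 had room. Beside the 11.1% of all genes with room, so few genes leave no reading for smooth muscle and immune markers. Genes of other organs were enclosed as well: Cyp7a1, 1 of 20 hepatocyte genes, had a loop in all 4 lists, and Snap25, 1 of 21 neuronal genes, had 1 in the knockout. With room were 8 hepatocyte and 12 neuronal genes, which gives 12.5% and 8.33%, beside the 11.1%.

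By gene family, developmental transcription factors were enclosed alone most often: 59 of 339 in some list, which is 33.0% of the 179 with room, beside 11.1% of all genes with room. Secreted ligands followed with 21 of 87 with room (24.1%), G protein-coupled receptors with 26 of 116 (22.4%), ion channels and transmitter receptors with 24 of 143 (16.8%), adhesion and synaptic organisers with 15 of 90 (16.7%) and matrix genes with 9 of 77 (11.7%). Olfactory and vomeronasal receptors, which lie in tight clusters, gave 1 of 378 (0.265%), Vmn2r117. These are counts with no test.

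Transcription factor genes also had wide space around them, which favours membership by the rule. Their median space between neighbouring genes was 392 kb, against 202 kb for all genes with room and 106 kb for olfactory and vomeronasal receptors. Within classes of that space the transcription factors gave 10.2% (95% interval 3.40 to 22.2; 5 of 49) under 200 kb, 33.3% (20.8 to 47.9; 17 of 51) from 200 to 500 kb, 41.7% (25.5 to 59.2; 15 of 36) from 500 to 1000 kb and 51.2% (35.5 to 66.7; 22 of 43) above. Genes with room other than these and the olfactory and vomeronasal receptors gave 4.31% (3.61 to 5.10), 13.9% (12.4 to 15.6), 20.8% (17.9 to 23.8) and 23.5% (20.2 to 27.0) in the same classes. The intervals overlapped under 200 kb and did not in the other 3 classes. Adhesion and synaptic organiser genes had the widest space, a median of 1780.2 kb, and were enclosed alone at 16.7%. Space here runs from neighbour to neighbour and includes the body of the gene itself. Its part in the shares of the families was not tested.

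**Figure D4:**
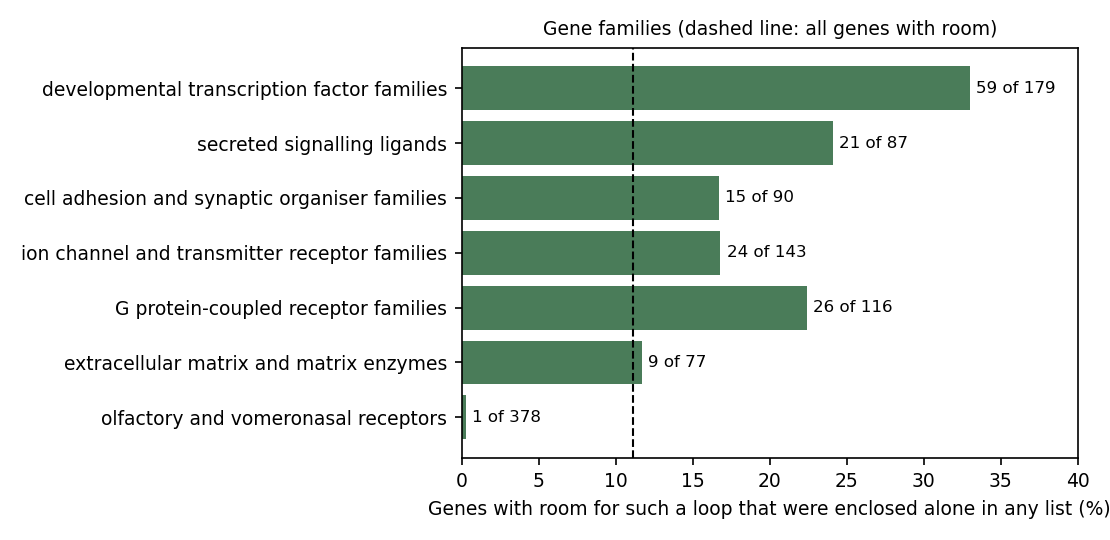
Bars give the share of genes with room for such a loop that were enclosed alone in any list (horizontal axis, %), for 7 gene families, with the count beside each bar. The dashed line is the 11.1% over all genes with room, and the bars run from 0.265% for olfactory and vomeronasal receptors to 33.0% for developmental transcription factors.

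The transcription factors in all 4 lists numbered 30. Besides those named they included Runx1 and Runx3 (Runt factors of blood and skeletal development), with 3, 2, 2 and 4 and with 2, 2, 2 and 2 member loops, and the T-box genes Tbx4 and Tbx5 with 1 each in every list. Among ligands, Bmp4 had 4, 3, 4 and 4 member loops and Fgf9 had 4, 2, 2 and 3. Of the receptors, Ednra and Ednrb, both receptors of the vasoconstrictor endothelin, had 1, 1, 1 and 2 each, and Adra1a, an adrenergic receptor of smooth muscle, had 2, 1, 1 and 1.

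Adhesion genes and channels were led by Pcdh18, a protocadherin, with 4, 2, 2 and 3 member loops, and by Kcns3, a potassium channel subunit, with 2 in every list. Ncam1, a neural adhesion molecule, had 2 in every list, Cntnap4 had 2, 1, 2 and 2, and the glutamate receptor Gria1 and the potassium channel Kcnj16 both had 2, 1, 2 and 1. Of the matrix enzymes other than Adamts5, Adamts16 had 1 in every list and Adamts18 had 1, 1, 2 and 1.

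Of the 748 genes, 367 (49.1%) were enclosed alone in all 4 lists, which is 5.43% of the genes with room, 102 in 3, 103 in 2 and 176 in 1. The largest group of genes seen in a single list was that of the knockout (88), followed by vehicle replicate 2 (48), progesterone (25) and vehicle replicate 3 (15). That order is also the order of the number of loops in the lists for knockout, vehicle replicate 2, progesterone and vehicle replicate 3. Genes in 1 list had a median body of 40.2 kb. With loops of 5 kb anchors alone, 219 genes were in all 4 lists, all of them among the 367.

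Single loops were compared by position: a loop was taken as found in another list when a loop there lay within 10 kb of both anchors, whether or not that loop was a member. Of the vehicle replicate 3 members, 91.3% (88.6 to 93.5) were found in vehicle replicate 2, beside 86.5% of all loops of the length range. After progesterone 88.0% of these members were found, beside 79.6%, and in the knockout 90.5%, beside 85.1%. Members were thus found more often than loops of the range at large in each of these lists.

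In the longer vehicle replicate 2 list, 472 of 839 member loops (56.3%, 52.8 to 59.6) were found in all 3 other lists, and they enclosed 399 genes. The share was 40.5% (39.7 to 41.4) for other loops of the length range and 26.8% (24.6 to 29.2) for loops with no gene body between the anchors. The same order held in the other lists: 82.3%, 69.4% and 61.8% in vehicle replicate 3, 71.3%, 56.1% and 42.3% after progesterone, and 50.9%, 31.8% and 18.1% in the knockout. The intervals for members and for other loops did not overlap in any of the 4 lists. These 4 comparisons are not independent, since a loop found in all lists is counted from each. Matched members numbered 472, 452, 475 and 471, and matched other loops 5085, 5176, 5135 and 5054. The shares thus differ between lists mainly by the number of loops in each list. The share found in no other list was 13.0%, 3.83%, 4.05% and 20.9% for members.

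**Figure D5:**
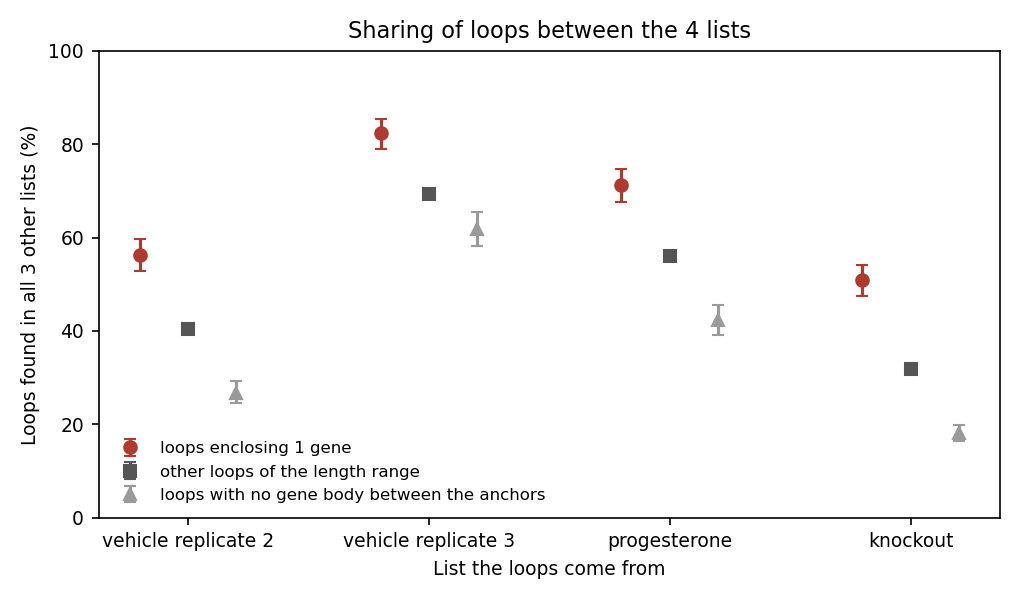
Share of loops found in all 3 other lists (vertical axis, %), by the list the loops come from (horizontal axis), for loops that enclose 1 gene, other loops of the length range and loops with no gene body between the anchors. Points are shares and bars are exact 95% intervals, which cover counting error only. Members lie highest in every list, from 50.9% to 82.3%. The lists largely count the same shared loops, so they are not independent.

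Length and anchor size moved with this result, and loops were split by each in turn but not by both together. Loops with no gene body between the anchors were not split. Members had 5 kb anchors in 62.8%, 58.5%, 59% and 65.8% of loops, against 53.4%, 36.9%, 44.0% and 59.1% of the rest. Among loops of vehicle replicate 2 with 5 kb anchors, 74.4% (70.4 to 78.1) of members and 58.0% (56.8 to 59.2) of other loops were found in all 3 other lists. With 10 kb anchors the shares were 29.2% (23.4 to 35.5) and 23.7% (22.4 to 25.1), and with 25 kb anchors 15.2% (8.10 to 25) and 14.2% (12.7 to 15.8), so the intervals overlapped for both. With 10 kb anchors the members and other loops gave 81.2% (74.0 to 87.1) and 65.4% (63.5 to 67.2) in vehicle replicate 3, 59.8% (52.5 to 66.8) and 44.8% (43.0 to 46.6) for progesterone, and 36.7% (30.4 to 43.3) and 21.2% (20.1 to 22.4) for the knockout, with no overlap of intervals. With 5 kb anchors the intervals overlapped in vehicle replicate 3, at 89.7% (85.9 to 92.8) and 86.1% (84.8 to 87.4), and not in the progesterone and knockout lists. With 25 kb anchors they overlapped in all 4 lists. By length, members of vehicle replicate 2 gave 62.8% at 60 to 200 kb, 60.7% at 200 to 500 kb and 46.5% above, and other loops 39.8%, 43.7% and 36.9%.

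The comparison with progesterone asked whether genes gained or lost their own loop 1 h after the hormone. Of 531 vehicle replicate 2 members also found in vehicle replicate 3, 38 (7.16%, 5.11 to 9.69) had no counterpart after progesterone, beside 14.6% of all loops of the range treated the same way. Of 666 progesterone members, 51 (7.66%, 5.75 to 9.95) were in neither vehicle list, beside 13.7%. The vehicle lists set the baseline: 106 of 599 members (17.7%) found in vehicle replicate 2 and progesterone were missing from vehicle replicate 3, beside 26.3%, and 15 of 483 (3.11%) found in vehicle replicate 3 and progesterone were missing from vehicle replicate 2, beside 5.90%. The 7.16% lay between these baseline shares. With 1 progesterone library there is no test between the conditions.

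By gene, 28 of 409 (6.85%) enclosed alone in both vehicle lists were not so after progesterone, and 35 of 503 (6.96%) were so after progesterone and in neither vehicle list. Of these 35, 10 were also enclosed alone in the knockout and 25 were not. Taking each vehicle list in turn as the odd one out gave 11 of 392 (2.81%) missing from vehicle replicate 2 and 76 of 457 (16.6%) missing from vehicle replicate 3. For the reverse direction, 107 of 592 genes (18.1%) of vehicle replicate 2 and 22 of 442 (4.98%) of vehicle replicate 3 were in neither of the other 2 lists of this comparison. Both progesterone shares lay between the baselines. The counts rest on both vehicle lists: with only vehicle replicate 3 as the baseline they were 50 and 111, and with only vehicle replicate 2 they were 135 and 46.

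Of the 28 genes, for 15 a loop after progesterone still lay within 10 kb of both anchors of a member loop, and for 13 none did. The genes with most vehicle members were 4930571K23Rik (3 and 1 member loops in vehicle replicates 2 and 3), Dph6 (3 and 1; an enzyme of diphthamide synthesis), Adgrd1 (2 and 1; an adhesion receptor), Foxq1 (1 and 2; a forkhead factor) and Rai2 (2 and 1). Foxq1 and Rai2 were among the 15, so a loop that is no member was still called near the same place after progesterone. All 5 genes also had member loops in the knockout, which were 2, 1, 1, 2 and 1.

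Of the 35 genes in the reverse direction, 24 had a vehicle loop within 10 kb of both anchors and 11 had none. Each of the 35 had 1 member loop after progesterone, so the first 5 by symbol are given: 4930519L02Rik, AA414768, Adra2a, Aldoart1 and B3galt5. Adra2a, an adrenergic receptor, lay 0.26 kb from the first anchor of its 1020.0 kb loop, and loops near that position were in all 4 lists. Ptgfr, the receptor for prostaglandin F2 alpha, and Fshr, the receptor for follicle-stimulating hormone, were among the 11, and were picked out after their values were seen. Their loops were 220.0 kb and 700.0 kb long and were found in no other list.

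The comparison with the knockout asked the same of estrogen receptor alpha in the absence of ovarian hormone. Of the 531 members in both vehicle lists, 33 (6.21%, 4.32 to 8.62) had no counterpart in the knockout, beside 10.4% of all loops. Of 925 knockout members, 224 (24.2%, 21.5 to 27.1) were in neither vehicle list, beside 37.1%. In the vehicle baseline, 171 of 669 members (25.6%) in vehicle replicate 2 and knockout were missing from vehicle replicate 3, beside 36.9%, and 23 of 497 (4.63%) in vehicle replicate 3 and knockout were missing from vehicle replicate 2, beside 7.54%.

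By gene, 21 of 409 (5.13%) enclosed alone in both vehicle lists were not so in the knockout, and 98 of 619 (15.8%) were so in the knockout and in neither vehicle list. For the first, the baselines were 13 of 401 genes (3.24%) missing from vehicle replicate 2 and 120 of 508 (23.6%) missing from vehicle replicate 3. For the reverse, 63 of 592 (10.6%) were in vehicle replicate 2 alone and 20 of 442 (4.52%) in vehicle replicate 3 alone among these 3 lists, so the 15.8% was above both. With vehicle replicate 3 alone the counts were 41 and 218, and with vehicle replicate 2 alone 84 and 111. The excess of genes on the knockout side goes with its longer list, and genotype and list length cannot be told apart with 1 knockout library.

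The genes with most vehicle members among the 21 were Tshz2 (2 and 2 member loops in vehicle replicates 2 and 3; a zinc finger transcription factor), Maf (2 and 1; a leucine zipper factor), Akr1c14 (1 and 1; a steroid dehydrogenase), Dusp5 (1 and 1; a phosphatase of ERK) and Gadd45g (1 and 1; a stress-response gene). Tshz2 and Akr1c14 were among 9 with no knockout loop within 10 kb of both anchors, as were Igf1 and Nrip1, the latter a coregulator of nuclear receptors. Dusp5 and Gadd45g each had a loop at the same position in both vehicle lists, and for both a loop near that place was in all 4 lists. Tshz2 and Akr1c14 each also had 1 member after progesterone, as did Maf, while Dusp5, Gadd45g and Nrip1 had none.

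Of the 98 genes in the reverse direction, 74 had no vehicle loop within 10 kb of both anchors. The genes with 2 knockout members were 3110040M04Rik, Adra2a, Cabcoco1, Lgi1, Tbl1xr1 (a corepressor subunit) and Tlr4 (a receptor of innate immunity). Lgi1, a secreted neuronal protein, filled 73.8% and 49.2% of its intervals of loops 65 and 95 kb long. Ccdc170 (chr10:4482515-4564498), picked out after its value was seen, lies beside Esr1 (chr10:4611989-5005633). It was enclosed alone in the knockout only, by a 120.0 kb loop with 10.0 kb anchors, chr10:4470001-4480000 and chr10:4590001-4600000, that was found in no other list. Of all knockout members, 20.9% were found in no other list, beside 33.6% of all knockout loops of the length range. The longer knockout list, a local effect of the altered Esr1 allele and the loss of the receptor cannot be told apart for this loop.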

How the data were processed

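The authors deposited 1 loop list per library, without a header, in 6 columns that place each anchor by chromosome, start and end. These deposited positions are in bases on mm10, and Juicer 1.5.6 was used, per the submitters' processing notes. Neither the caller of the loops nor its cut-offs is named in the labels used here. The lists hold no contact counts, so depth is unknown, and a loop that is not listed was not called rather than absent. Starts count from 0 in the lists and were written from 1.

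The gene table was RefSeq's for GRCm38.p6, without strand, limited to the autosomes and X. Length was measured from anchor start to anchor start. To match loops, the anchors of 1 list were extended by 10 kb at both ends. A gene had room when its neighbours left space for a loop over 60 kb and up to 2 Mb with 5 kb anchors. Progesterone and knockout have 1 library each, so no test between conditions was made, and shares carry exact Clopper-Pearson 95% intervals. The members and the 11 gene lists and 7 families, the latter by symbol pattern, were chosen with earlier results of these data known; 238 of 239 list entries matched. Genes were named by fixed rules: most member loops among genes with a loop in all 4 lists (12), list genes (10), 5 per direction of each comparison, up to 3 per family, extremes of length and filling, loops beside each limit, and Esr1, Pgr, Igf1, Greb1 and Ihh. Some genes these rules or lists hold are not reported here. Further genes given as examples of a list, family or count were picked after their values were seen. Placing and matching were tested on simulated data. The software was matplotlib 3.10.9, scipy 1.17.1, pandas 2.3.3, numpy 2.4.6 and Python 3.11.15.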

Additional observations from a re-analysis of the deposited data

How the results depend on the processing

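The lists hold positions only, so no filter on loop strength or depth could be tried, and a gene at an anchor edge can enter or leave by the width of a bin. Values are given for vehicle replicate 2, vehicle replicate 3, progesterone and knockout in that order. Barring non-coding genes gave 44, 25, 33 and 41 member loops and 40, 25, 32 and 38 genes, with 56 in any list and 21 in all 4. Widening anchors by 10 kb gave 461, 272, 347 and 524 loops and 319, 217, 252 and 336 genes, with 390 and 186. Loops with 5 kb anchors only gave 527, 321, 393 and 609 loops, 285 genes in vehicle replicate 3 and 219 in all 4 lists. The 186, 21 and 219 genes in all 4 lists under these settings were all among the 367. Letting anchors hold gene starts or ends gave 935 genes in the knockout and 1135 in any list. Leaving out loops with 25 kb anchors, or measuring length to the end of the second anchor, kept the total counts of member loops per list within 1.5 times, and the first did so for the total counts of genes too. Loops per named gene moved more: without 25 kb anchors, 18 of the 58 named genes changed by over 1.5 times.

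Sharing of vehicle replicate 3 members with vehicle replicate 2, progesterone and knockout became 62.1%, 58.5% and 60.3% when anchors had to overlap with 0 kb added, and 95.3%, 91.8% and 95.3% with 25 kb added. Sharing of progesterone members with vehicle replicate 2 and knockout became 62.0% and 63.4%, or 93.4% and 92.3%, and that of vehicle replicate 2 members with the knockout 57.9% or 86.3%. With non-coding genes barred the first 3 shares were 100.0%, 96.0% and 100.0%, and with widened anchors the last was 75.7%.

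Of genes enclosed alone in both vehicle lists, those not so after progesterone numbered 1 with non-coding genes barred, 48 with genes allowed in anchors, 17 with widened anchors and 17 with 5 kb anchors only. The reverse counts were 4, 56, 15 and 18. For the knockout the counts were 0 with non-coding genes barred and 6 with widened anchors, and the reverse counts 10, 49 and, with genes allowed in anchors, 200. Counting only genes with no loop within 10 kb of both anchors gave 13 and 11 for progesterone and 9 and 74 for the knockout. Doing so with 25 kb added, chosen after the data were seen, gave 12, 8 and 6 and kept the last within 1.5 times. The width added in matching does not enter the counts of genes otherwise. Without either vehicle replicate in turn the 4 counts ranged from 50 to 135, 46 to 111, 41 to 84 and 111 to 218. Of the 58 genes named by the rules and enclosed, 53 had no member loop with non-coding genes barred, 21 with widened anchors, 11 with 5 kb anchors only and 5 without 25 kb anchors. No paired analysis was possible because the vehicle and progesterone groups share fewer than 2 replicate numbers, the knockout label has none, and no test was made.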
